A study of Homo sapiens with 24 samples.

Results

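The SLC25 family is the set of mitochondrial carriers, and its SLC25A members were described here in ARP1, a human line of multiple myeloma cells kept for 24 h with LPA or with its vehicle, PBS. Members were all rows of the deposited expression table whose gene symbol begins with SLC25A, with pseudogenes left out. Described here are 46 of 19158 genes, of which 45 are protein-coding carriers and 1 is the antisense RNA SLC25A5-AS1. A single pseudogene row, SLC25A51P4, was left out, and SLC25A31 and SLC25A52 were not analysed here. LPA is taken here as lysophosphatidic acid, since the labels give only the abbreviation, and its labelled dose of 4 mg/mL has an uncertain unit. The PBS group and the LPA group were each 3 libraries of the same line, and the 4 sequencing lanes of a library were averaged and counted as 1 replicate, which makes 24 samples and n = 3 per group. No genetic change or other agent is named in the labels, and a single cell line was used. Whether the 3 libraries of a group are separate cultures is not stated, and p-values therefore measure only how these libraries vary, which may be technical.

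Mitochondrial carriers are small proteins built from a repeated pair of membrane helices, and most sit in the inner mitochondrial membrane, where they exchange one metabolite for another. They move nucleotides, phosphate, amino acids, carboxylates, acylcarnitines, cofactors and iron between the cytosol and the matrix, so that the enzymes of the matrix depend on them for substrates and for export. In plasma cell tumours, which make large amounts of protein, they supply ATP to the cytosol and precursors to amino acid and one-carbon metabolism.

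Values are FPM, the CPM unit for fragments, in which counts are scaled to a common total in every lane. Library totals were 5498910 to 5615625 reads with PBS and 6941747 to 8740992 reads with LPA, so that 1 read was worth 0.114 to 0.182 FPM. Of the plasma cell and myeloma markers, 10 of 10 were listed, with a summed level of 1710 to 1873 FPM with PBS and 2757 to 2937 FPM with LPA, while the listed B cell, T cell, myeloid and erythroid markers summed to at most 7.67 FPM in any library and the stroma markers to 18.5 to 30.0 FPM. Nuclear protein-coding genes took 58.6% ± 2.02 of reads with PBS and 65.4% ± 2.07 with LPA (SD, n = 3), and mitochondrial genome transcripts 3.21% ± 0.501 and 2.30% ± 0.233. PBS library 2 had the highest share of mitochondrial transcripts (3.79%) and LPA library 3 the lowest (2.03%). The median log2 fold change of all 16274 genes tested was 0.13 on FPM and 0.0062 after FPM were rescaled by median-of-ratios size factors. Both scalings are given for the carriers as a set and for each carrier called on either scaling. Values of the other carriers are on FPM unless rescaling is named. The part that these shifts in the makeup of the libraries have in the values below was not tested. In bulk RNA, fewer cells of a kind and less RNA per cell cannot be told apart.

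The ADP/ATP carriers SLC25A4, SLC25A5 and SLC25A6 are close paralogues, and a stretch of their coding sequence is shown to make clear how far reads could tell them apart. The lines give coding positions 682 to 741 of the 894-base coding sequence in GENCODE release 29, with the 15 positions at which the carriers are not all the same in capitals.
SLC25A4: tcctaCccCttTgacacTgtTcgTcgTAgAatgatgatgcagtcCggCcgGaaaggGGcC
SLC25A5: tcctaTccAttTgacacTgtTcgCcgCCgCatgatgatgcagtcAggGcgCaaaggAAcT
SLC25A6: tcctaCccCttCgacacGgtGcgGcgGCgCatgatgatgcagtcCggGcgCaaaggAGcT
In these 60 bases SLC25A4 and SLC25A5 differed at 12 positions, SLC25A4 and SLC25A6 at 11, and SLC25A5 and SLC25A6 at 9. Over the aligned coding sequence SLC25A5 was 79.7% identical to SLC25A6 and 78.2% identical to SLC25A4. In the annotation 7 other genes match at least 200 bases of the SLC25A5 coding sequence at 90% identity or more, up to 93.6%, most of them its pseudogenes. How reads that match several genes were counted is not given in the sources used here, so the split between SLC25A5 and its copies is uncertain.

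Promoters of carriers named in the results are shown as the 250 bases before the annotated start, from RefSeq on build GRCh38.p14. SLC25A5 and SLC25A36 are shown because both were higher with LPA on both scalings, and SLC25A22 because it was the carrier called lower after rescaling. SLC25A32 was also called higher on both scalings, but it had no match in the promoter table. Capitals mark the letters CACGTG, the E-box, and the box named for its letters CCAAT, searched on both strands with overlaps between motifs allowed.
SLC25A5, chrX:119468194-119468443, plus strand: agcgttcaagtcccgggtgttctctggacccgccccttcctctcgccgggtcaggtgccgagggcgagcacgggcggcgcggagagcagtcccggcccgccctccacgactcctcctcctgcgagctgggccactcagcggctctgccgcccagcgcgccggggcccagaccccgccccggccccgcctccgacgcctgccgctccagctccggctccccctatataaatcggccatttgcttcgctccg
SLC25A36, chr3:140941586-140941835, plus strand: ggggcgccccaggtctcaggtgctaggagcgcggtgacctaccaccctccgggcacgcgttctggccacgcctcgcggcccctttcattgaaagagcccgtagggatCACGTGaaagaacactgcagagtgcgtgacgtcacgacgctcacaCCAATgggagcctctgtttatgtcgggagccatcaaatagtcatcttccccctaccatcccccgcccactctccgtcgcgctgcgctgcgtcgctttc
SLC25A22, chr11:798282-798531, minus strand: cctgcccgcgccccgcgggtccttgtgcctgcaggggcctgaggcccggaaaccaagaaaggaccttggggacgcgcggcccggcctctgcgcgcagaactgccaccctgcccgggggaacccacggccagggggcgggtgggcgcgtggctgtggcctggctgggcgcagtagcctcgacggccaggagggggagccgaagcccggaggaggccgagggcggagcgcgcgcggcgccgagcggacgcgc
The SLC25A36 window held 1 E-box and 1 CCAAT box, and the windows of SLC25A5 and SLC25A22 held none of these letters. Of the 38 carriers matched in the promoter table, 6 (15.8%) held the E-box letters and 18 (47.4%) the CCAAT letters. The same letters were in 6.34% and 32.0% of all 35116 promoter windows of the same length. Carriers were counted with 1 window per symbol, whereas the set of all windows was not reduced in this way. The difference in shares was not tested. The motif of NRF1, also searched, was in 2 of the 38 (5.26%), none of them shown here, and in 5.07% of all windows. A match describes these letters and is not a binding site.

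The carriers were spread over a wide range of levels. By mean FPM over the libraries, 5 carriers stood at 100 or more, 23 between 10 and 100, 13 between 1 and 10, and 4 under 1. Per kilobase of exon (the union of exons in the basic set of the annotation), SLC25A5 was the highest in PBS cells at 121 FPM per kilobase, followed by SLC25A6 at 84.2, the outer-membrane member SLC25A46 at 38.8, the phosphate carrier SLC25A3 at 32.4, the glutathione carrier SLC25A39 at 24.1 and the citrate carrier SLC25A1 at 22.4. With LPA these 6 kept the same order, at 149.5, 92.2, 45.8, 37.7, 24.9 and 23.5 FPM per kilobase. This order rests on the exon lengths, which were 1274 bases for SLC25A5 and 6856 for SLC25A3. Which transcript forms were expressed was not tested. The carriers under 1 FPM were SLC25A2, SLC25A27, SLC25A41 and SLC25A48. They did not reach the minimum of 1 FPM in 3 libraries and were not tested. Among them SLC25A2, a second ornithine carrier, had no read in PBS library 3, where a count of 0 allows up to 0.546 FPM (3 reads, counting error only).

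**Figure D1:**
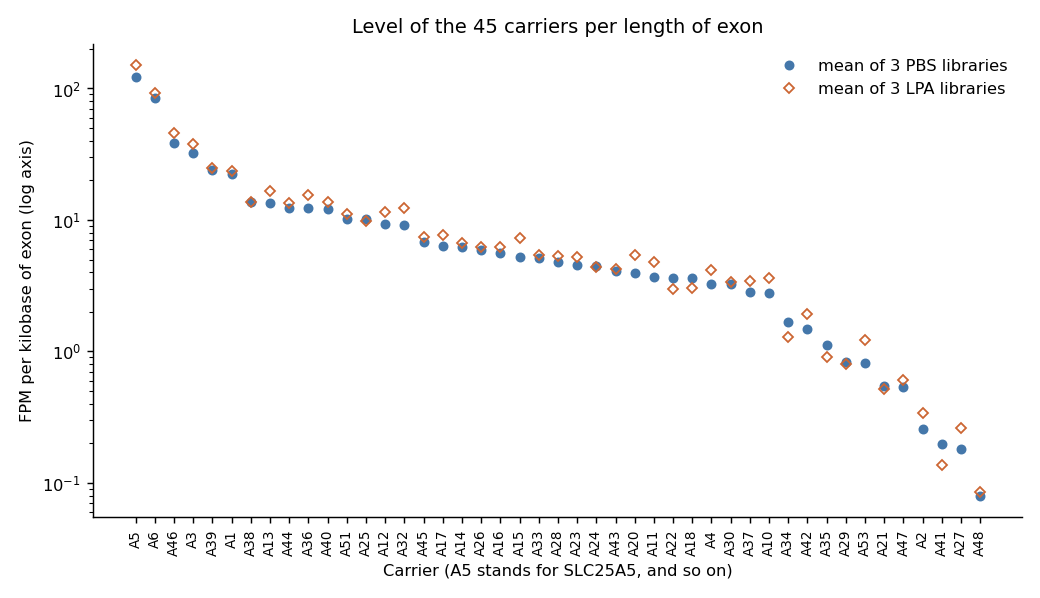
Mean FPM per kilobase of exon (log axis) of the 45 protein-coding carriers in 3 PBS libraries (filled circles) and 3 LPA libraries (open diamonds), ordered by the PBS level. SLC25A5 and SLC25A6 stand at the top with 121 and 84.2 FPM per kilobase in PBS cells, and SLC25A2, SLC25A41, SLC25A27 and SLC25A48 at the bottom.

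Summed over the 45 carriers, the level was 1418, 1495 and 1424 FPM in PBS libraries 1 to 3 and 1614, 1590 and 1755 FPM in LPA libraries 1 to 3. The group means were 1446 ± 42.7 and 1653 ± 89.4 FPM (SD, n = 3), a ratio of 1.14. As a share of the reads of nuclear protein-coding genes these carriers took 0.2482%, 0.2454% and 0.2467% with PBS and 0.2499%, 0.2488% and 0.2590% with LPA, a ratio of 1.024. The LPA libraries lay above the PBS libraries on both measures, with LPA library 3 highest on each. On the share the groups were barely apart, the lowest LPA value being 0.2488% and the highest PBS value 0.2482%. LPA library 3 stood apart at 0.2590%. Whether the share differed between the groups was not tested. The 5 most abundant carriers, SLC25A3, SLC25A6, SLC25A5, SLC25A46 and SLC25A36, made up 53.1% to 53.6% of this sum with PBS and 54.4% to 55.4% with LPA.

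Of the 41 carriers tested, 10 rose with LPA (24.4%), where 22.5% of all genes tested rose, and 0 fell, where 4.49% of all genes fell (limma on log2(FPM + 1), Benjamini-Hochberg adjusted p below 0.05 over all genes). At an unadjusted p below 0.05, 0 carriers were lower on FPM, 4 on rescaled FPM, 3 by edgeR and 1 by DESeq2. The 4 on rescaled FPM were SLC25A18, SLC25A22, SLC25A25 and SLC25A34. The risers were SLC25A3, SLC25A4, SLC25A5, SLC25A12, SLC25A13, SLC25A15, SLC25A32, SLC25A36, SLC25A46 and SLC25A53. The median log2 fold change of the carriers was 0.12, beside 0.13 for all genes tested, and 34 of 41 values were above 0 (82.9%, against 70.7% of all genes). After rescaling the median of the carriers was -0.0080, beside 0.0062 for all genes, and 19 of 40 values were above 0. On rescaled FPM 3 carriers rose, SLC25A5, SLC25A32 and SLC25A36, of 40 tested, where 10.1% of all genes rose. SLC25A22 was the 1 carrier that was lower on that scaling, where 9.26% of all genes were lower. edgeR on reads recovered from the FPM called the same 3 carriers higher and SLC25A22 lower, where it called 9.58% of all genes higher and 9.39% lower. DESeq2 on those reads called 0 of 39 carriers higher and 0 lower, with the same 3 higher at an unadjusted p below 0.05, where it called 5.70% of all genes higher and 6.70% lower. As shares of the carriers with a value, the calls after rescaling were 7.5% higher and 2.5% lower, each below the share of all genes, and the count higher on FPM was near that of all genes. All 3 LPA libraries lay above all 3 PBS libraries in FPM for 12 of 41 carriers, where this was so for 31.4% of all genes, and all 3 lay below for 1, SLC25A22, where this was so for 7.42%. On rescaled FPM they lay above for 6 of the 41 (17.1% of all genes) and below for 5 (16.5% of all genes), which were SLC25A22, SLC25A24, SLC25A34, SLC25A35 and SLC25A38. The count of 10 fell to 6 without PBS library 3 and to 4 without LPA library 3. SLC25A5, SLC25A32 and SLC25A36 were called higher in 15 of the 16 fits run, the exception being DESeq2.

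**Figure D2:**
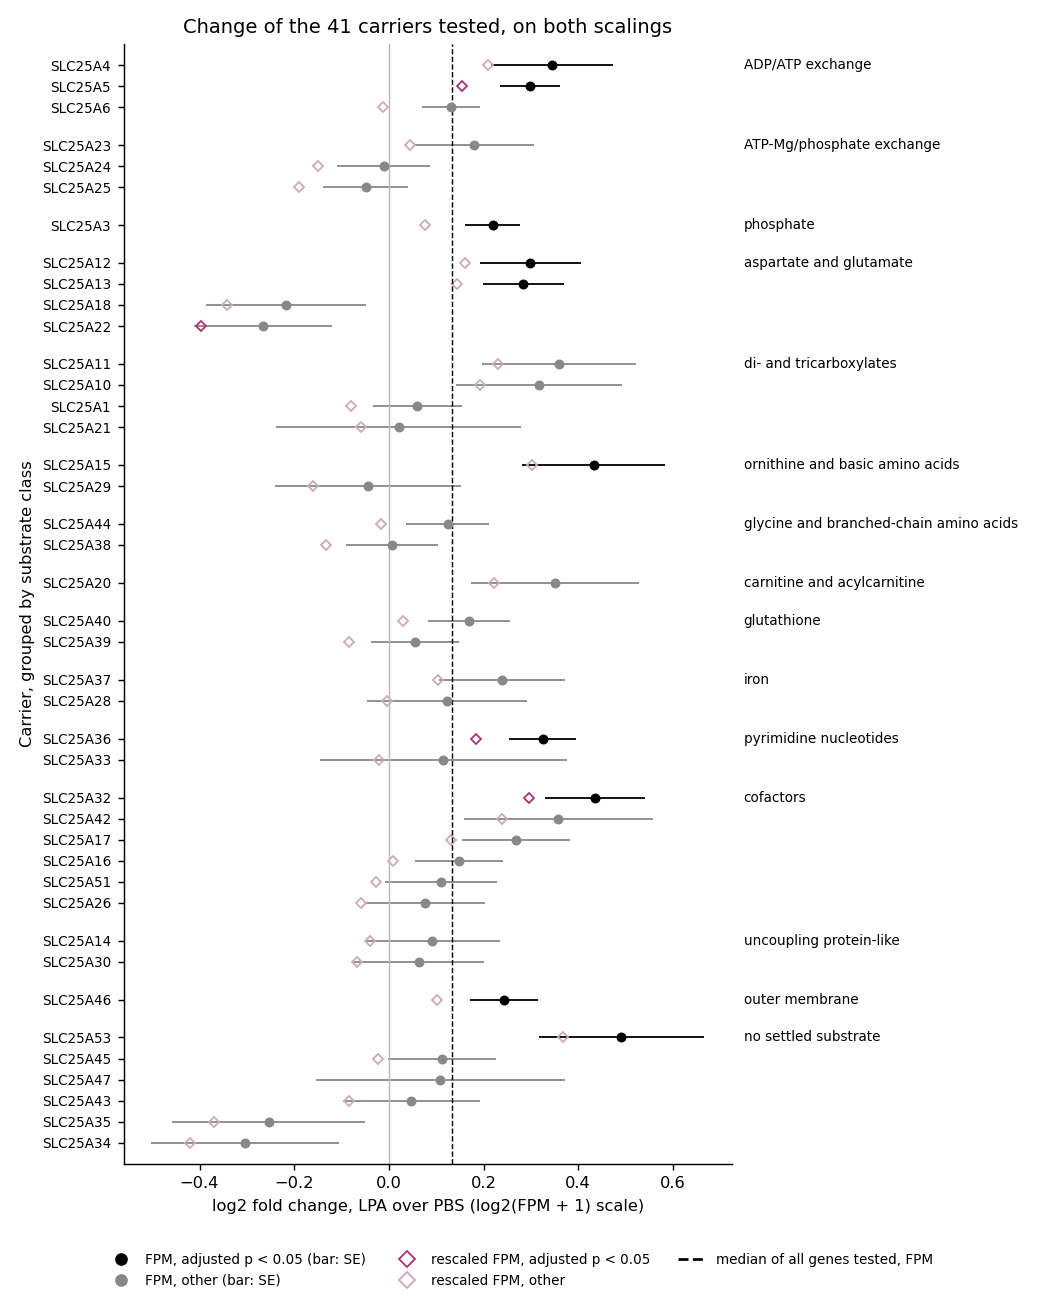
Log2 fold change (LPA over PBS) of the 41 carriers tested, grouped by transported substrate, on FPM (circles with SE, black where the limma adjusted p was below 0.05) and on rescaled FPM (open diamonds, dark where below 0.05). The dashed line is the median of all genes tested on FPM, 0.13. Rescaling moved the values to the left, and SLC25A32, SLC25A36 and SLC25A5 remained called higher.

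**Figure D3:**
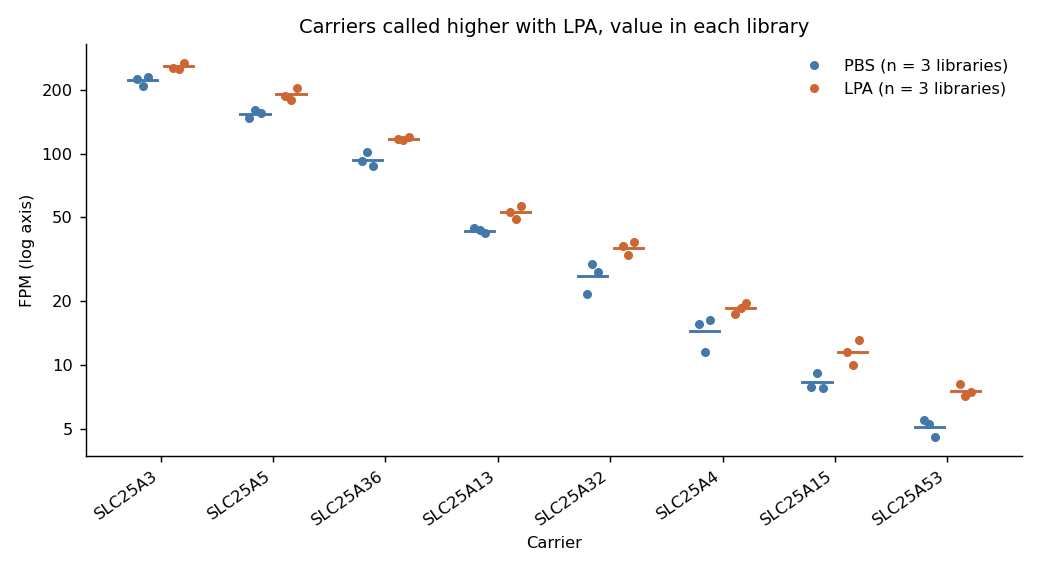
FPM (log axis) in each PBS and LPA library (points, n = 3 per group, line at the mean) of the 8 carriers that were called higher on FPM and whose groups did not overlap. SLC25A3 runs from 209 to 269 FPM at the high end and SLC25A53 from 4.56 to 8.12 FPM at the low end.

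Among the 6 carriers of cofactors, SLC25A32 rose on both scalings and the other 5 did not pass the test. Of all genes, 22.5% rose on FPM and 10.1% after rescaling. SLC25A32, a carrier of folate and FAD, stood at 21.7, 30.0 and 27.5 FPM with PBS and 36.4, 33.0 and 38.0 FPM with LPA. Its groups did not overlap, and PBS library 1 was the lowest. On the log2 scale the change was 0.44 (SE 0.11, adjusted p = 0.0012) on FPM and 0.30 after rescaling (adjusted p = 0.023). The annotation holds another protein-coding gene, AC012213.5, over 88.1% of the exonic bases of SLC25A32 on the same strand, and DCAF13 overlaps 11.1% on the other strand. DCAF13 rose too (0.37, SE 0.08, adjusted p = 3.93e-04), and whether reads were split between these genes was not tested.

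The most abundant carrier of the cofactor class, SLC25A16, which is linked to coenzyme A, stood at 34.7, 40.3 and 35.3 FPM with PBS and 40.2, 39.2 and 43.1 FPM with LPA. These groups overlapped, and the log2 fold change of 0.15 (SE 0.09, adjusted p = 0.25) did not pass the test. SLC25A42, the coenzyme A carrier, had 4.62 ± 1.69 FPM with PBS and 5.97 ± 0.506 with LPA, and SLC25A17, a peroxisomal carrier of cofactors, had 21.4 ± 2.97 and 25.9 ± 3.15 FPM. Neither passed the test on all libraries, and both did so without PBS library 2 (SLC25A42 at 0.54, adjusted p = 0.047; SLC25A17 at 0.37, adjusted p = 0.012). The log2 fold change of SLC25A42 was 0.36 on all libraries and 0.09 without PBS library 3 (adjusted p = 0.81), and that of SLC25A17 was 0.27 on all libraries, 0.17 without LPA library 3 (adjusted p = 0.36) and 0.18 without PBS library 3 (adjusted p = 0.32). SLC25A26 carries S-adenosylmethionine, the methyl donor, and had 16.9 ± 2.72 FPM with PBS and 17.8 ± 2.07 with LPA. SLC25A51, the NAD carrier, had 17.5 ± 0.398 and 19.0 ± 1.83 FPM. SLC25A51 has 5 near copies at up to 97.6% identity, and the row of one of them, the pseudogene SLC25A51P4, was higher with LPA (11.5 ± 2.43 and 16.4 ± 1.40 FPM, log2 fold change 0.50, adjusted p = 0.0056), a call lost after rescaling (0.36, adjusted p = 0.051) and without PBS library 1 (0.34, adjusted p = 0.086). Summed over the 6 listed carriers of the class, the level was 124 ± 10.1 FPM with PBS and 145 ± 10.5 FPM with LPA, a ratio of 1.18.

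The pyrimidine nucleotide carriers feed the matrix with the building blocks of mitochondrial DNA and RNA. SLC25A36 stood at 91.9, 101.6 and 87.8 FPM with PBS and at 116.7, 115.7 and 120.1 FPM with LPA. The LPA libraries lay close together and above all PBS libraries. The log2 fold change was 0.32 (SE 0.07, adjusted p = 3.76e-04) on FPM and 0.18 after rescaling (adjusted p = 0.014). On FPM it was 0.28 to 0.38 without single libraries. Its paralogue SLC25A33 stood at 25.7, 20.6 and 13.1 FPM with PBS and 17.6, 20.4 and 24.9 FPM with LPA. SLC25A33 varied more within each group than between them, and its log2 fold change was 0.12 (SE 0.26, adjusted p = 0.80). Another gene, AC135977.1, not analysed here, matches its coding sequence at 99.3% identity.

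The ADP/ATP carriers send ATP made in the matrix to the cytosol in exchange for ADP, and 2 of the 3 listed, SLC25A4 and SLC25A5, rose on FPM. Of all genes, 22.5% rose on FPM. After rescaling and by edgeR 1 of the 3 was called higher, and by DESeq2 0. SLC25A5, the form known for its expression in dividing cells, stood at 148, 161 and 155 FPM with PBS and 187, 179 and 205 FPM with LPA. The groups did not overlap, the lowest LPA library standing above the highest PBS library. Its log2 fold change was 0.30 (SE 0.06, adjusted p = 3.07e-04) on FPM and 0.16 after rescaling (adjusted p = 0.016). On FPM it was 0.24 to 0.34 without single libraries. SLC25A6, the other abundant form, stood at 174, 175 and 172 FPM with PBS and 183, 188 and 199 FPM with LPA. Its groups did not overlap either, and it did not pass the test, with a log2 fold change of 0.13 (SE 0.06, adjusted p = 0.11) on FPM and -0.01 after rescaling. SLC25A4, the form of heart and skeletal muscle, stood at 15.7, 11.6 and 16.4 FPM with PBS and 17.5, 18.5 and 19.6 FPM with LPA. PBS library 2 was the lowest, and the log2 fold change was 0.34 (SE 0.13, adjusted p = 0.039). This call was lost after rescaling (0.21, adjusted p = 0.29) and without PBS library 2 (0.20, adjusted p = 0.23), LPA library 1 (0.38, adjusted p = 0.056), LPA library 2 (0.34, adjusted p = 0.085) or LPA library 3 (0.31, adjusted p = 0.15). The antisense RNA SLC25A5-AS1, which overlaps 17.8% of the exonic bases of SLC25A5, stood at 4.14 ± 0.277 FPM with PBS and 4.29 ± 1.03 FPM with LPA (log2 fold change 0.02, adjusted p = 0.95).

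SLC25A3, which imports the phosphate for ATP synthesis and also carries copper, was the most abundant carrier in FPM. It stood at 226, 209 and 229.8 FPM with PBS and 254, 251 and 269 FPM with LPA. The groups did not overlap on FPM, and the log2 fold change was 0.22 (SE 0.06, adjusted p = 0.0034), a call kept without each single library (0.18 to 0.25). After rescaling the groups overlapped and the log2 fold change was 0.08 (adjusted p = 0.32). The ATP-Mg/phosphate carriers adjust the adenine nucleotide content of the matrix and are regulated by calcium, and 0 of the 3 tested passed the test in either direction, on FPM by limma or by edgeR or DESeq2. At an unadjusted p below 0.05 there was 0 on FPM, 1 on rescaled FPM and 1 by edgeR, SLC25A25 in both. SLC25A25 stood at 46.1, 45.2 and 46.4 FPM with PBS and 42.7, 40.4 and 50.4 FPM with LPA. SLC25A24 stood at 28.5, 29.5 and 29.6 FPM with PBS and 28.6, 29.1 and 29.1 FPM with LPA. On FPM both sets of libraries overlapped, and the log2 fold changes were -0.05 (SE 0.09, adjusted p = 0.74) and -0.01 (SE 0.10, adjusted p = 0.95). After rescaling they were -0.19 (adjusted p = 0.084) and -0.15 (adjusted p = 0.26), and the LPA libraries of SLC25A24 all lay below its PBS libraries. The third, SLC25A23, had 16.1 ± 1.79 FPM with PBS and 18.4 ± 2.81 with LPA (adjusted p = 0.31).

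Of the 4 aspartate and glutamate carriers, SLC25A12 and SLC25A13 rose on FPM, while the glutamate carriers SLC25A18 and SLC25A22 had values below 0. Of all genes, 22.5% rose on FPM, and after rescaling 0 of these 4 carriers rose. SLC25A13 and SLC25A12 exchange aspartate for glutamate in the malate-aspartate shuttle, which moves reducing equivalents into the matrix. SLC25A13 stood at 44.3, 43.4 and 42.0 FPM with PBS and 53.2, 49.2 and 56.5 FPM with LPA, with no overlap. Its log2 fold change was 0.28 (SE 0.09, adjusted p = 0.010), and the call was lost after rescaling (0.14, adjusted p = 0.18) and without LPA library 3 (0.24, adjusted p = 0.067). SLC25A12 stood at 25.3, 32.0 and 25.6 FPM with PBS and 32.5, 30.6 and 39.6 FPM with LPA. PBS library 2 lay above LPA library 2, so the groups overlapped. The log2 fold change was 0.30 (SE 0.11, adjusted p = 0.030), and the call was lost after rescaling (0.16, adjusted p = 0.25) and without PBS library 1 (0.24, adjusted p = 0.15), PBS library 3 (0.25, adjusted p = 0.13) or LPA library 3 (0.19, adjusted p = 0.26).

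SLC25A22, which imports glutamate with a proton, stood at 11.4, 11.8 and 12.7 FPM with PBS and 10.9, 8.60 and 9.95 FPM with LPA. On FPM it was the single tested carrier whose LPA libraries all lay below its PBS libraries, and after rescaling it was 1 of 5. The log2 fold change was -0.27 (SE 0.14, adjusted p = 0.18) on FPM and did not pass the test, while after rescaling it was -0.40 (adjusted p = 0.038) and by edgeR -0.42 (adjusted p = 0.048). By DESeq2 its adjusted p was 0.19. PANO1 overlaps 15.2% of its exonic bases on the other strand and stood at 1.34 to 3.64 FPM. Its paralogue SLC25A18 stood at 8.72, 8.69 and 6.91 FPM with PBS and 6.86, 7.91 and 5.76 FPM with LPA. These groups overlapped, and the log2 fold change was -0.22 (SE 0.17, adjusted p = 0.37) on FPM and -0.34 after rescaling (adjusted p = 0.15).

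The di- and tricarboxylate carriers export citrate for lipid synthesis and exchange malate, succinate and oxoglutarate, and 0 of the 4 passed the test by limma, edgeR or DESeq2, with 1, SLC25A11, at an unadjusted p below 0.05 on FPM and 0 by the other tools. SLC25A1, the citrate carrier, stood at 38.1, 41.4 and 40.2 FPM with PBS and 39.7, 37.6 and 48.3 FPM with LPA, with overlap (log2 fold change 0.06, SE 0.09, adjusted p = 0.69). LPA library 3 was the highest. SLC25A11, the oxoglutarate and malate carrier, had 6.96 ± 1.25 FPM with PBS and 9.13 ± 0.189 with LPA, and the groups did not overlap. Its log2 fold change of 0.36 (SE 0.16, adjusted p = 0.097) passed the test without PBS library 1 (0.48, adjusted p = 0.044) and not without any other single library (0.27 to 0.37), and RNF167 overlaps 12.9% of its exonic bases on the other strand. SLC25A10, the dicarboxylate carrier, had 5.64 ± 0.477 and 7.31 ± 1.12 FPM (adjusted p = 0.18), and 60.4% of its exonic bases lie in a second gene of the same strand, AC139530.2. SLC25A21, the oxoadipate carrier, had 1.56 ± 0.883 and 1.47 ± 0.0280 FPM.

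SLC25A15, the ornithine carrier of the urea cycle, was the 1 of 2 tested carriers of ornithine and basic amino acids that rose on FPM, where 22.5% of all genes rose. It stood at 7.84, 9.21 and 7.83 FPM with PBS and 11.6, 10.1 and 13.1 FPM with LPA. The groups did not overlap, and LPA library 3 was the highest. Its log2 fold change was 0.43 (SE 0.15, adjusted p = 0.027). The call was lost after rescaling (0.30, adjusted p = 0.14) and without PBS library 1 (0.40, adjusted p = 0.080), PBS library 3 (0.40, adjusted p = 0.082), LPA library 1 (0.43, adjusted p = 0.082) or LPA library 3 (0.35, adjusted p = 0.16). Its coding sequence has 5 partial copies at up to 96.4% identity, which were not analysed here. SLC25A29, a carrier of arginine and lysine, had 4.63 ± 0.896 FPM with PBS and 4.44 ± 0.662 with LPA. The carriers of glycine and of branched-chain amino acids did not pass the test. SLC25A44, the branched-chain amino acid carrier, stood at 44.3, 47.6 and 43.8 FPM with PBS and 45.2, 50.4 and 52.9 FPM with LPA (log2 fold change 0.12, SE 0.09, adjusted p = 0.32). SLC25A38, which imports glycine for haem synthesis, had 33.5 ± 0.978 and 33.8 ± 3.21 FPM.

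SLC25A20, which carries acylcarnitines into the matrix for fatty acid oxidation, stood at 7.30, 7.95 and 7.10 FPM with PBS and 6.75, 9.67 and 14.1 FPM with LPA. LPA library 1 lay below every PBS library, and the other LPA libraries lay above every one. The log2 fold change of 0.35 (SE 0.18, adjusted p = 0.14) did not pass the test, and leaving out single libraries moved it from 0.11 without LPA library 3 (adjusted p = 0.75) to 0.59 without LPA library 1 (adjusted p = 0.014). The glutathione carriers SLC25A39 and SLC25A40 bring the main thiol antioxidant into the matrix, and neither passed the test. SLC25A39 stood at 41.1, 34.7 and 42.7 FPM with PBS and 39.2, 42.1 and 41.6 FPM with LPA. SLC25A40 stood at 47.0, 55.5 and 45.4 FPM with PBS and 55.3, 57.1 and 53.8 FPM with LPA. PBS library 2 was the lowest PBS library for the first and the highest for the second. The log2 fold change of SLC25A40 was 0.17 (SE 0.09, adjusted p = 0.14), and leaving out single libraries gave 0.11 without PBS library 3 (adjusted p = 0.45) to 0.26 without PBS library 2 (adjusted p = 0.015).

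The mitoferrins SLC25A28 and SLC25A37 import iron for haem and iron-sulfur clusters, and neither passed the test. SLC25A37, the form of erythroid cells, stood at 13.2, 15.5 and 12.4 FPM with PBS and 16.6, 13.6 and 19.2 FPM with LPA (log2 fold change 0.24, SE 0.13, adjusted p = 0.19). SLC25A28 stood at 7.30, 5.78 and 7.82 FPM with PBS and 6.76, 8.73 and 7.49 FPM with LPA (log2 fold change 0.12, SE 0.17, adjusted p = 0.65). The groups of both overlapped. Of the uncoupling protein-like members, SLC25A30 stood at 11.8, 13.9 and 10.9 FPM with PBS and 12.8, 12.6 and 12.8 FPM with LPA, and SLC25A14 had 11.2 ± 1.67 and 11.9 ± 0.282 FPM. Neither passed the test (adjusted p = 0.78 and 0.69).

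SLC25A46 is a member of the outer membrane that acts in mitochondrial dynamics and is not known as a carrier of a metabolite. It stood at 120.2, 147 and 118 FPM with PBS and 148, 146 and 160.5 FPM with LPA. PBS library 2 lay above LPA library 2, so the groups overlapped. The change was 0.24 on the log2 scale (SE 0.07, adjusted p = 0.0080), and the call was lost after rescaling (0.10, adjusted p = 0.21) and without PBS library 1 (0.20, adjusted p = 0.073), PBS library 3 (0.19, adjusted p = 0.094) or LPA library 3 (0.20, adjusted p = 0.071). Of the 6 tested members with no settled substrate, SLC25A53 rose on FPM, where 22.5% of all genes rose. It stood at 5.52, 5.26 and 4.56 FPM with PBS and 8.12, 7.12 and 7.49 FPM with LPA, with no overlap. Its log2 fold change was 0.49 (SE 0.17, adjusted p = 0.030), the call was lost after rescaling (0.37, adjusted p = 0.12), and 1 other gene not analysed here, AC234782.1, matches it at 95.8% identity. The call was also lost without PBS library 3 (0.42, adjusted p = 0.11), LPA library 1 (0.45, adjusted p = 0.13), LPA library 2 (0.53, adjusted p = 0.052) or LPA library 3 (0.50, adjusted p = 0.073). SLC25A45, the most abundant of these, stood at 17.5, 19.2 and 18.6 FPM with PBS and 20.2, 19.5 and 20.2 FPM with LPA, and its log2 fold change was 0.11 (SE 0.11, adjusted p = 0.52). SLC25A34 had 4.99 ± 1.04 FPM with PBS and 3.82 ± 0.496 with LPA, and SLC25A35 had 4.39 ± 0.599 and 3.56 ± 0.921 FPM (adjusted p = 0.27 and 0.39). RANGRF overlaps 33.2% of the exonic bases of SLC25A35 on the other strand. SLC25A43 had 11.5 ± 2.28 and 11.8 ± 0.694 FPM, and SLC25A47 had 0.962 ± 0.459 and 1.09 ± 0.224 FPM.

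**Figure D4:**
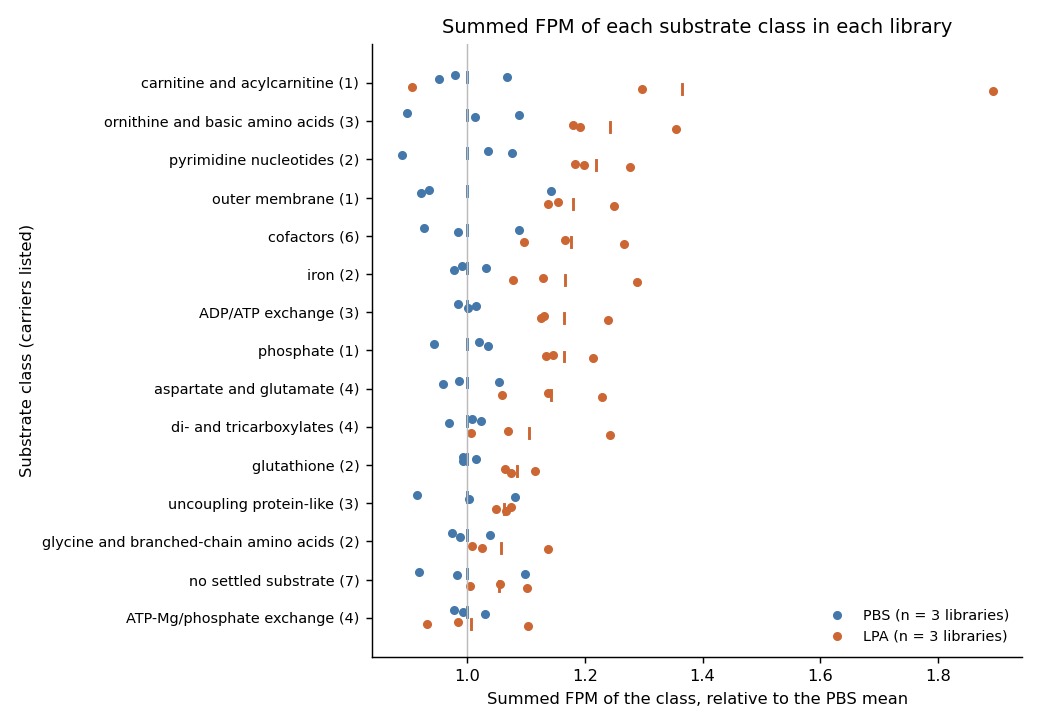
Summed FPM of each substrate class in each library, divided by the mean of the 3 PBS libraries (points, with a short line at the mean of each group, n = 3); the number of carriers listed is in parentheses. The mean ratio was 1.24 for ornithine and basic amino acids, 1.22 for pyrimidine nucleotides, 1.18 for cofactors, 1.16 for ADP/ATP exchange and 1.01 for ATP-Mg/phosphate exchange. The single carnitine carrier, with a mean ratio of 1.37, had the most spread LPA libraries. Sums are on FPM without rescaling, and the share of reads in all nuclear protein-coding genes had a ratio of 1.12.

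Within pairs of carriers that share a substrate, the share of one member in the pair's FPM does not depend on the scaling of the library. Of the 7 pairs compared, the share of 1, SLC25A5 with SLC25A6, did not overlap between the groups. SLC25A5 made up 46.0%, 47.9% and 47.4% of the pair in PBS libraries 1 to 3 and 50.6%, 48.7% and 50.7% in LPA libraries 1 to 3. The difference was 2.92 percentage points, and the exact two-sided permutation test gave p = 0.1, the smallest that 3 against 3 libraries allow, and an adjusted p of 0.7 over the 7 pairs. It was 2.36 to 3.57 percentage points without single libraries. The other 6 pairs overlapped between the groups, with exact p of 0.5 to 1. SLC25A36 held 82.8% ± 4.44 of its pair with SLC25A33 in PBS cells and 84.9% ± 2.04 in LPA cells, SLC25A13 held 61.1% ± 3.18 and 60.8% ± 1.80 of its pair with SLC25A12, and SLC25A22 held 59.6% ± 4.48 and 58.9% ± 5.99 of its pair with SLC25A18. SLC25A39 held 44.5% ± 5.32 and 42.5% ± 1.07 of its pair with SLC25A40, SLC25A24 held 38.9% ± 0.663 and 39.5% ± 2.71 of its pair with SLC25A25, and SLC25A28 held 33.8% ± 6.0 and 32.1% ± 6.15 of its pair with SLC25A37.

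**Figure D5:**
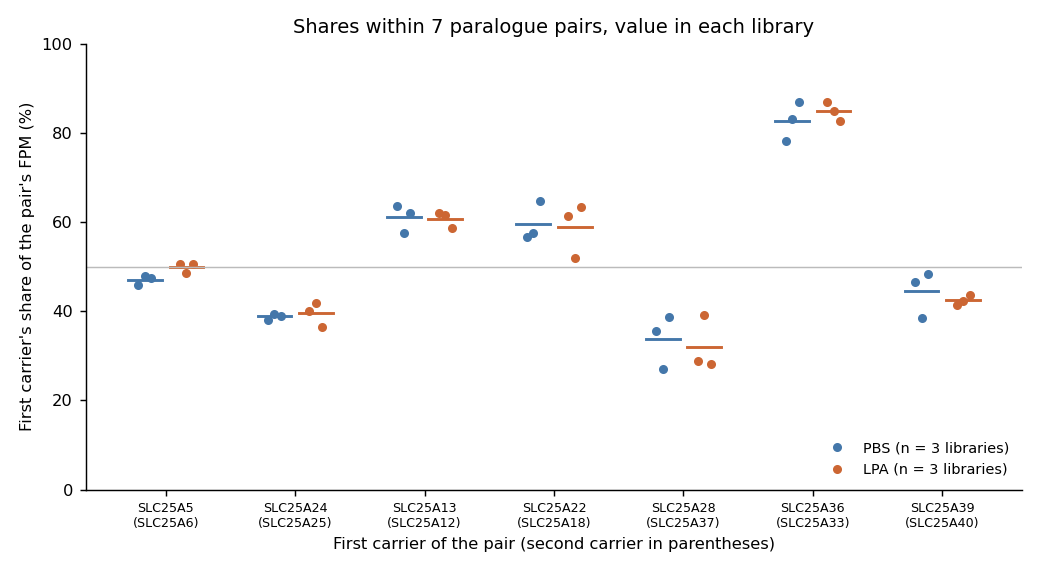
Share of the first carrier in the summed FPM of each of 7 pairs that carry the same substrate, in each library (points, n = 3 per group, line at the mean). The share of SLC25A5 in its pair with SLC25A6 lies between 46.0% and 47.9% in PBS libraries and between 48.7% and 50.7% in LPA libraries, and the groups of the other 6 pairs overlap.

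The carriers work beside other membrane proteins and the enzymes that use what they carry, and 61 such genes of 63 listed by name were tested. Of these, 23 rose (37.7%) and 1 fell on FPM, where 22.5% of all genes rose and 4.49% fell, and 15 rose and 4 fell after rescaling, where 10.1% and 9.26% of all genes did. Their median log2 fold change was 0.21 on FPM and 0.07 after rescaling, beside 0.13 and 0.0062 for all genes. The lists, here and in the next paragraph, were chosen with earlier results of these data known. These shares therefore do not show that such genes rose more often than others, which was not tested. SLC25 members that bear other symbols were MTCH2, an outer-membrane insertase, which rose (42.9 ± 0.483 and 53.4 ± 8.73 FPM, log2 fold change 0.30, adjusted p = 0.013) and lost the call after rescaling (adjusted p = 0.19) and without LPA library 3 (0.17, adjusted p = 0.21), and UCP2, UCP3 and MTCH1, which did not pass the test (0.02, 0.27 and 0.01). Of 25 other transport proteins 11 rose on FPM (44.0%, beside 22.5% of all genes) and 1 fell, while 7 rose and 2 fell after rescaling, and the 4 with the smallest p kept the call after rescaling. CPT1A, which makes the acylcarnitines that SLC25A20 carries, rose from 72.0 ± 1.45 to 102.9 ± 4.25 FPM (log2 fold change 0.51, SE 0.07, adjusted p = 3.21e-07). NNT, the inner-membrane transhydrogenase, rose from 96.1 ± 8.81 to 127 ± 8.11 FPM (0.41, adjusted p = 2.01e-05). SFXN2, a sideroflexin, rose from 21.3 ± 1.58 to 32.0 ± 2.84 FPM (0.56, adjusted p = 4.66e-05), and LETM1, a cation exchanger of the inner membrane, from 56.0 ± 2.17 to 75.1 ± 3.52 FPM (0.42, adjusted p = 5.34e-05). The gene that fell was ABCB6, named after its values were seen, an ABC transporter linked to porphyrins (15.5 ± 1.75 and 11.8 ± 0.852 FPM, log2 fold change -0.36, adjusted p = 0.038). It was called lower after rescaling too (-0.49, adjusted p = 0.0037), and the call on FPM was lost without PBS library 2 (-0.30, adjusted p = 0.10), PBS library 3 (-0.33, adjusted p = 0.12), LPA library 1 (-0.36, adjusted p = 0.093) or LPA library 2 (-0.31, adjusted p = 0.13).

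Of the 32 tested enzymes that make or use carried substrates, 11 rose (34.4%) and 0 fell on FPM, where 22.5% and 4.49% of all genes did, with 0 lower at an unadjusted p below 0.05. After rescaling 8 rose (10.1% of all genes). By edgeR 2 were lower (9.39% of all genes), by DESeq2 also 2 (6.70% of all genes), and those by edgeR were also the 2 lower after rescaling (9.26% of all genes), GPX4 and ISCU, named after their values were seen. GOT2, the matrix transaminase that makes the aspartate exported by SLC25A12 and SLC25A13, rose from 35.6 ± 1.33 to 53.7 ± 2.96 FPM (log2 fold change 0.58, SE 0.09, adjusted p = 1.04e-06). ACLY, which splits the citrate exported by SLC25A1, rose from 109 ± 4.61 to 146 ± 9.63 FPM (0.42, adjusted p = 3.02e-06). GLUD1, glutamate dehydrogenase, rose from 84.4 ± 5.69 to 111 ± 1.91 FPM (0.40, adjusted p = 2.52e-05), and MDH2, the matrix malate dehydrogenase, from 70.9 ± 0.630 to 92.5 ± 0.587 FPM (0.38, adjusted p = 6.76e-05). These 4 were also called higher after rescaling, with log2 fold changes of 0.44, 0.28, 0.25 and 0.24. The carriers beside them differed in size: SLC25A13 and SLC25A12 stood at 0.28 and 0.30 on FPM, SLC25A1 at 0.06 and SLC25A22 at -0.27. After rescaling, in the same order, these carriers stood at 0.14, 0.16, -0.08 and -0.40.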

How the data were processed

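RNA of ARP1 cells was sequenced as DNB libraries from total RNA, per the labels. The deposited table gives CPM of fragments (FPM), scaled by the authors, in 1 column per lane. The sources used here do not give the aligner, the counting tool or the strand setting. Per the submitters' processing notes the build was mm10, a mouse build, whereas the identifiers are human Ensembl identifiers, so no coordinates were taken from the table. Within 0.02 reads, 100% of values were whole multiples of 1 read, and these reads were used for edgeR 4.0.16 and DESeq2 1.42.0. Both tools also rescaled the libraries, by factors of their own, and are therefore no independent check of rescaled FPM. From 19345 rows with a gene, 187 repeated identifiers were dropped. The 4 lanes of a library were averaged. A gene was tested if 3 of the 6 libraries reached 1 FPM. Tests used log2(FPM + 1) and limma 3.58.1 in R 4.3.3 (trend, robust, two-sided, Benjamini-Hochberg over 16274 genes, threshold 0.05); fold changes are on that scale, which understates changes of low genes. Listed genes held 86.5% to 91.6% of the library totals. Rescaled FPM used median-of-ratios size factors of 0.932 to 1.10. The fits were also run on simulated data with no built-in shift in the makeup of the libraries. That run cannot show which scaling is right. Values in every library are given for carriers called on FPM with groups not overlapping, for the most abundant carrier of each substrate class and for the 7 pairs; of the context lists, the 4 genes with the smallest p are named. Substrate classes come from general knowledge. Overlaps, copies and lengths come from GENCODE release 29, with the exons of the carriers taken from its basic set, and copies were matched by blastn. 1 further SLC25A row of the table is not reported here. The members and lists were chosen with earlier results of these data known. Alternatives were other scalings, pseudocounts, filters and tests, and leaving out libraries. Fits without single libraries were run on FPM only, not after rescaling. Intervals and limits cover counting error only.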

Additional observations from a re-analysis of the deposited data

How the results depend on the processing

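The count of carriers higher with LPA was 10 on FPM, 3 on rescaled FPM, 3 by edgeR and 0 by DESeq2 (3 at an unadjusted p below 0.05), and 4 to 12 when single libraries were left out; the count lower was 0 on FPM, 1 on rescaled FPM and 1 by edgeR, and stayed at 0 without each library. For the context genes, 23 were higher on FPM, 15 on rescaled FPM, 14 by edgeR and 9 by DESeq2, and 18 to 28 without single libraries; 1 was lower on FPM, 4 on rescaled FPM, 4 by edgeR and 3 by DESeq2, and 0 to 1 without single libraries. Over all genes, the calls higher and lower numbered 3666 and 731 on FPM, 1634 and 1495 after rescaling, 1559 and 1528 with edgeR, and 802 and 943 with DESeq2. Without single libraries, 2463 to 4487 were higher and 543 to 714 lower. The cause of these differences was not tested. Pseudocounts of 0.5 and 4, no filter and a filter at 5 FPM kept all 10 carriers, and the fit without robust variances lost SLC25A4. With the replicate number as a block, 10 carriers and 22 context genes were higher, the same 10 carriers. Same-numbered libraries did not deviate together (correlations of -0.01, -0.04 and -0.05), and no library correlated best with its own number. With 3 libraries per group this cannot show whether the libraries were paired, which the labels do not state. Without both PBS library 2 and LPA library 3, a setting that gives values only, 11 of 11 carriers called on FPM or after rescaling kept their sign, while SLC25A4 went from 0.34 to 0.16 and SLC25A3 from 0.22 to 0.15. Depth limits carriers under 1 FPM, where 1 read was worth 0.114 to 0.182 FPM.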
